A study of Homo sapiens with 15 samples.

Results

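The proteins that hold epithelial cells together were followed as messenger RNA in LNCaP cells, a human prostate carcinoma line that responds to androgen. The set comprised 10 genes taken by name from 26443 gene names with values: CDH1, CTNND1, CLDN3, CLDN4, CLDN7, OCLN, TJP1, EPCAM, DSP and CD2AP. All 10 were among the 12715 genes that reached 1 RPKM in at least 3 libraries. RPKM is the number of reads per kilobase of gene model and per unit of library size, so that levels of different genes can be set side by side. The 15 libraries fell into 5 groups of 3, and each group had been infected with lentivirus for 4 to 5 days. The control group carried pLKO, the labels' control hairpin vector. The others carried a hairpin against PALI1 (shPALI1), G9a (shG9a), JARID2 (shJarid2) or SUZ12 (shsuz12). All 5 groups were the same line with a wild-type label, and the labels give 1 hairpin name per target, so effects of a target and of its hairpin cannot be told apart. The series title names PALI1, PRC2 and chromatin targeted by G9a as its subject. PALI1 is a PRC2-associated protein from the LCOR locus, JARID2 and SUZ12 belong to PRC2, which methylates lysine 27 of histone H3, and G9a, encoded by EHMT2, methylates lysine 9.

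Epithelial cells are joined side by side by several structures stacked along their contact. The tight junction nearest the lumen is sealed by claudins and occludin and tied to actin by ZO proteins. The adherens junction below it is built on E-cadherin and its catenins, and the desmosome links neighbouring keratin networks. In prostate epithelium these contacts keep the secretory layer polarised towards the gland's lumen, and E-cadherin is a textbook target of chromatin-based repression in carcinoma.

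Depth worked out from the steps in low values was 10.56 to 19.36 M reads per library. The targeted RNA was low under its own hairpin. Against pLKO, C10orf12, the symbol that the table gives to part of PALI1, stood at 23.8% in shPALI1, EHMT2 at 25.7% in shG9a, JARID2 at 18.3% in shJarid2 and SUZ12 at 12.5% in shsuz12. Library 3 of shJarid2 stood apart. Its values correlated across genes at r = 0.9745 and 0.9784 with the other shJarid2 libraries, against 0.986 to 0.992 for pairs of replicates in all other cases, and long transcripts read low in it. The members' results on shJarid2 are therefore given with and without that library. The labels do not say whether replicates came from separate cultures, so p-values measure only the spread between these libraries.

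Members were compared between groups with limma on log2(RPKM + 1), and a gene passed at a Benjamini-Hochberg adjusted p of at most 0.05. Differences below are on this log2 scale, which understates the change of low genes, with their standard error (SE). In bulk RNA, fewer cells of a type and less RNA per cell cannot be told apart. The comparisons with pLKO share the same 3 control libraries, and their values are set side by side without a test between them.

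In shPALI1, 5 of the 10 junction genes were lower than in pLKO, namely CDH1, CLDN3, CLDN4, CLDN7 and CD2AP, and EPCAM was higher. Among all 12715 genes, 25.1% passed as lower and 16.5% as higher in this comparison. The members' median difference was -0.36, and that of all genes was -0.05. In shG9a, 4 members were higher (CDH1, CLDN4, OCLN and EPCAM) and 0 were lower, where 18.4% of all genes were higher and 24.7% lower. The members' median difference was 0.40 there, beside -0.04 for all genes. In shJarid2, 6 members were higher, namely CLDN3, CLDN4, CLDN7, OCLN, EPCAM and CD2AP, while DSP was lower. Of all genes, 23.8% were higher and 27.2% lower in shJarid2, and the medians were 0.58 for the members and -0.04 for all genes. Without library 3 of shJarid2, 9 members were higher and 0 lower, where 25.2% of all genes were higher and 29.7% lower. In shsuz12, CDH1, CLDN4, OCLN and EPCAM were higher and CLDN7 and CD2AP lower, against backgrounds of 21.1% higher and 32.8% lower. The members' median was 0.24 there, and that of all genes -0.08. EPCAM passed as higher in each of these 4 comparisons, CLDN4 passed in all 4 with a lower level in shPALI1, and CTNND1 and TJP1 passed in 0 of them.

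**Figure D1:**
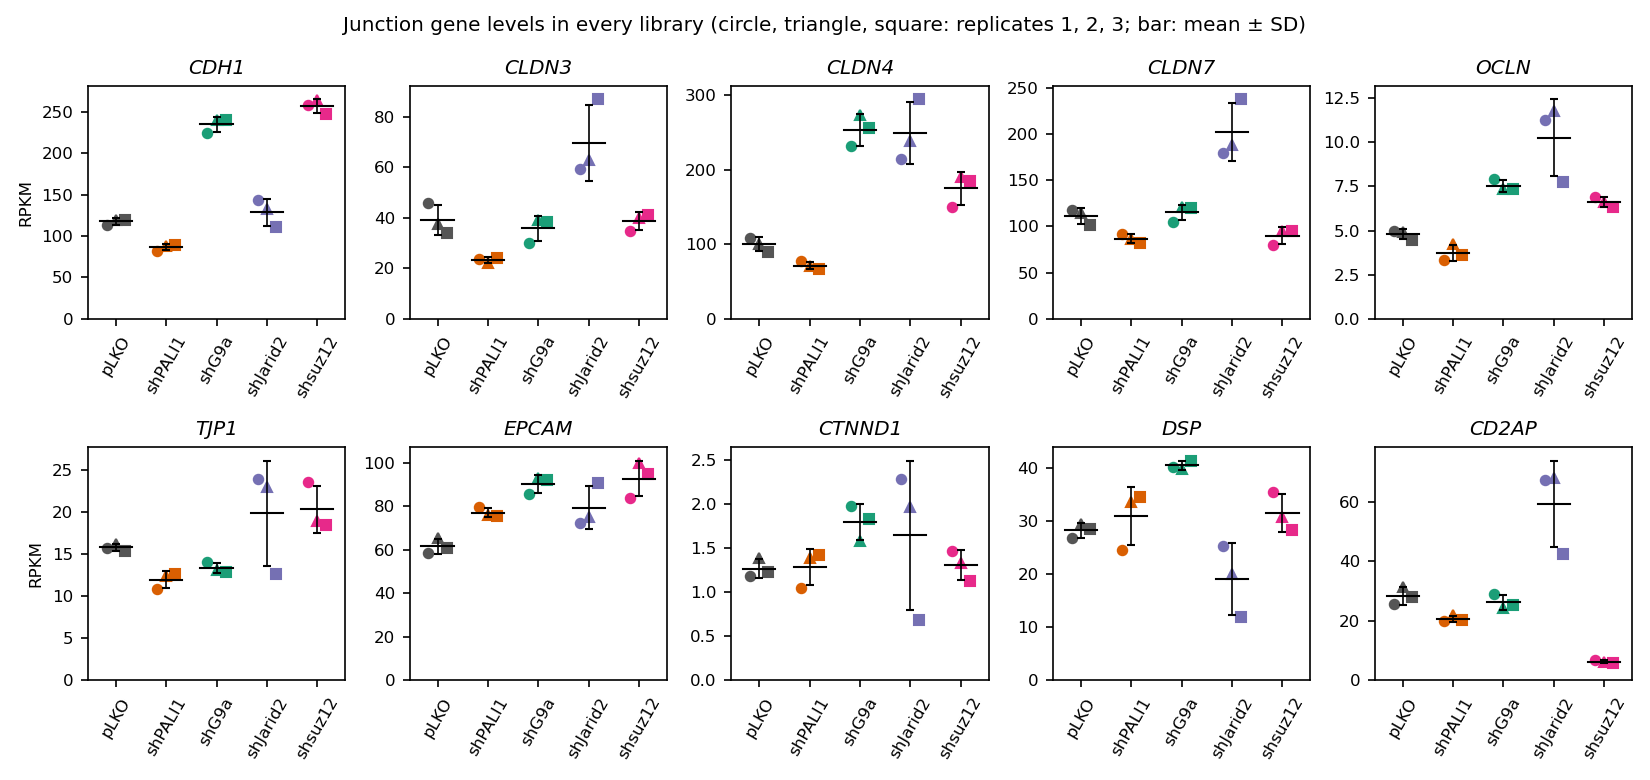
RPKM of each junction gene (vertical axis, linear, from 0) in the 5 groups; circles, triangles and squares are replicates 1, 2 and 3, and bars give the mean ± SD of 3 libraries. The shPALI1 libraries lie below all pLKO libraries for CDH1, CLDN3, CLDN4, CLDN7, OCLN, TJP1 and CD2AP, and CD2AP lies near 6 RPKM in shsuz12.

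The adherens junction was represented by CDH1, which encodes E-cadherin, the calcium-dependent adhesion molecule of epithelia. The gene lies at chr16:68737225-68835548 on the plus strand of GRCh38. CDH1 stood at 113, 119.7 and 119.7 RPKM in pLKO and at 82.1, 88.0 and 89.0 RPKM in shPALI1. Both shG9a, at 224, 239.6 and 240.3 RPKM, and shsuz12, at 258, 264 and 248 RPKM, lay far above every pLKO library. In shJarid2 the 3 libraries gave 143, 132 and 111 RPKM, which overlapped pLKO. The shPALI1 mean was 73.5% of the pLKO mean (log2 difference -0.44, SE 0.08, adjusted p = 7.57e-04). Under quantile normalization this fall did not pass, at -0.32 and an adjusted p of 0.0635. CDH1 rose 1.995-fold in shG9a (0.99, SE 0.08, adjusted p = 5.33e-07) and 2.18-fold in shsuz12 (1.12, SE 0.08, adjusted p = 1.02e-07). The difference in shJarid2 was 0.12 (adjusted p = 0.239), and without library 3 it was 0.22 and passed (adjusted p = 0.00677).

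CTNND1, at chr11:57753243-57819546 on the plus strand, encodes p120-catenin, which binds the cytoplasmic tail of E-cadherin and holds it at the membrane. It was the lowest member, at 1.19, 1.38 and 1.23 RPKM in pLKO. Its RPKM was 1.04, 1.39 and 1.42 in shPALI1, 1.98, 1.57 and 1.83 in shG9a, 2.28, 1.97 and 0.683 in shJarid2, and 1.46, 1.33 and 1.13 in shsuz12. All 3 shG9a libraries lay above pLKO, and the other groups overlapped it. The 4 differences from pLKO, between 0.01 and 0.30, did not pass (adjusted p = 0.21 in shG9a). The 95% interval of the shG9a difference ran from -0.10 to 0.70. In shJarid2 the difference was 0.17 with all libraries (adjusted p = 0.485) and 0.46 without library 3 (adjusted p = 0.00272). A readthrough gene, TMX2-CTNND1, overlaps 38344 bases of CTNND1 on the same strand and is listed at 0 in every library, so reads shared between the 2 gene models may be missing from the CTNND1 values.

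The tight junction was represented by 3 claudins, the membrane proteins whose strands set what may pass between cells, and by OCLN and TJP1. CLDN3 (chr7:73768997-73770270, minus strand) and CLDN4 (chr7:73799542-73832693, plus strand) are neighbours on chromosome 7 of GRCh38, and CLDN7 (chr17:7259903-7263983, minus strand) lies on chromosome 17. The 250 bases before the RefSeq start of each (GRCh38.p14) are printed 5′ to 3′ to set 3 genes of one family side by side. CLDN4 passed as higher in shG9a and shsuz12, and CLDN3 and CLDN7 did not. The patterns of CLDN3 and CLDN7 were the most alike of any pair of members (Pearson's r = 0.89 over the 15 libraries). Capitals mark CAGGTG or its reverse complement CACCTG, the word that SNAI and ZEB repressors are known to bind, searched on both strands. The CLDN3 window is chr7:73770271-73770520, that of CLDN4 chr7:73830746-73830995 and the first CLDN7 window chr17:7262479-7262728.
CLDN3: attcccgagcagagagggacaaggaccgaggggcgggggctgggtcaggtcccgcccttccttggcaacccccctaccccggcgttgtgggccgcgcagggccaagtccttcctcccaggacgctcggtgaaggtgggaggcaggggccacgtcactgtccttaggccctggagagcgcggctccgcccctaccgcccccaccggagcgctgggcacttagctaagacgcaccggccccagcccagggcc
CLDN4: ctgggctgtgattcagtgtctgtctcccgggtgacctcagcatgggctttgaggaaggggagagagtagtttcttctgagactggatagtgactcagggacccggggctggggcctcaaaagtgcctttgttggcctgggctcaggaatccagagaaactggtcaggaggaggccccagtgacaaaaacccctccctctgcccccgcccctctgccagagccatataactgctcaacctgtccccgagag
CLDN7: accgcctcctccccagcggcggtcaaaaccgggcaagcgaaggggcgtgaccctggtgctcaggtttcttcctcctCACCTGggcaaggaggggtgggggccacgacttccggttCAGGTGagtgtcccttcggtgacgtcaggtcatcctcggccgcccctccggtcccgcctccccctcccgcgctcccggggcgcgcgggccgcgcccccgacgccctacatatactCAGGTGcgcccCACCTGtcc
The CLDN3 and CLDN4 windows held 0 of these words and the printed CLDN7 window held 4. The second CLDN7 window, chr17:7263214-7263463, held 0. RefSeq windows were matched for 7 of the 10 members, CDH1, EPCAM and CTNND1 being unmatched, and 6 of their 12 windows (50%) held the word, as did 17.49% of 35116 windows of this length. A word is a description of the letters and not a binding site.

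CLDN3 was 45.9, 37.7 and 34.1 RPKM in pLKO. It stood at 23.6, 22.0 and 24.1 RPKM in shPALI1 and at 59.2, 62.8 and 87.0 RPKM in shJarid2. These groups did not overlap pLKO and lay on opposite sides of it. The RPKM was 30.0, 39.3 and 38.2 in shG9a and 34.6, 40.1 and 41.2 in shsuz12, both overlapping pLKO. CLDN3 fell to 59.2% in shPALI1 (-0.72, SE 0.14, adjusted p = 0.00119), the largest fall of a member in that group. It rose 1.78-fold in shJarid2 (0.80, SE 0.14, adjusted p = 3.54e-04), and without library 3 the rise was 0.63. The differences of -0.13 in shG9a and -0.02 in shsuz12 did not pass, with 95% intervals from -0.44 to 0.18 and from -0.33 to 0.30.

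CLDN4 was 109, 100.7 and 90.2 RPKM in pLKO and 77.1, 70.8 and 66.7 RPKM in shPALI1. It reached 232, 274 and 256 RPKM in shG9a, 214, 238 and 295 RPKM in shJarid2, and 150.1, 191 and 186 RPKM in shsuz12. No hairpin group overlapped pLKO, and shPALI1 was the one group below it. CLDN4 fell to 71.5% in shPALI1 (-0.48, SE 0.12, adjusted p = 0.00703). It rose 2.54-fold in shG9a (1.34, SE 0.12, adjusted p = 1.52e-06), 2.49-fold in shJarid2 (1.30, SE 0.12, adjusted p = 1.06e-06) and 1.76-fold in shsuz12 (0.80, SE 0.12, adjusted p = 9.30e-05). Without library 3 the shJarid2 rise was 1.17. The rise was the largest of any member in shG9a, and in shJarid2 with all 3 libraries; without library 3, CD2AP rose more there (1.23).

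CLDN7 was 118, 114 and 102 RPKM in pLKO, 92.1, 86.0 and 82.4 RPKM in shPALI1, and 79.5, 95.3 and 95.1 RPKM in shsuz12. The shJarid2 libraries stood at 179.8, 188 and 238 RPKM, above all others, while shG9a, at 105, 121 and 119.6 RPKM, overlapped pLKO. CLDN7 rose 1.81-fold in shJarid2 (0.84, SE 0.11, adjusted p = 1.87e-05), by 0.72 without library 3. It fell to 78.0% in shPALI1 (-0.35, SE 0.11, adjusted p = 0.0183) and to 80.8% in shsuz12 (-0.31, SE 0.11, adjusted p = 0.0286). The first call passed in 13 of 17 settings, and the second in 10 of 17. The first did not pass without replicate 1 or 2 of pLKO, or replicate 2 or 3 of shPALI1 (adjusted p = 0.0673, 0.0561, 0.0501 and 0.0659). The second did not pass without replicate 1 of shsuz12, at -0.22, or without pLKO replicate 1 or 2, at -0.26 and -0.29 (adjusted p = 0.132, 0.0952 and 0.0800). It also did not pass with median ratio scaling (-0.20), quantile normalization (-0.12), the length correction (-0.14) or no filter on low values (adjusted p = 0.113, 0.0897, 0.0689 and 0.0514). The gene's 3′ end overlaps that of ELP5 on the opposite strand by 38 bases, and no source used here says whether counting used strand.

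OCLN (chr5:69492292-69558104, plus strand) encodes occludin, a membrane protein of the tight junction strand. It was 4.98, 4.91 and 4.48 RPKM in pLKO. The RPKM was 3.31, 4.21 and 3.62 in shPALI1, 7.90, 7.32 and 7.33 in shG9a, 11.2, 11.8 and 7.76 in shJarid2, and 6.88, 6.62 and 6.34 in shsuz12. As for CLDN4, shPALI1 lay below every pLKO library and the other hairpin groups above. OCLN rose 1.57-fold in shG9a (0.56, SE 0.12, adjusted p = 0.00168), 2.14-fold in shJarid2 (0.94, SE 0.12, adjusted p = 1.44e-05) and 1.38-fold in shsuz12 (0.40, SE 0.12, adjusted p = 0.0114). In shJarid2 the rise was 1.11 without library 3. The shPALI1 mean was 77.6% of pLKO, a difference of -0.30 that did not pass (SE 0.12, adjusted p = 0.0557). It passed in 7 of 17 settings, among them quantile normalization (adjusted p = 0.0443) and the length correction (0.0214).

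TJP1 (chr15:29699367-29968865, minus strand) encodes ZO-1, the scaffold that ties claudins and occludin to actin. It was 15.8, 16.2 and 15.4 RPKM in pLKO, 10.8, 12.4 and 12.7 RPKM in shPALI1, and 14.1, 13.1 and 12.9 RPKM in shG9a. Both of these groups lay below pLKO without overlap. It was 23.9, 23.0 and 12.7 RPKM in shJarid2 and 23.6, 18.9 and 18.5 RPKM in shsuz12, where library 3 of shJarid2 stood below pLKO and the others above. Differences were -0.37 in shPALI1, -0.22 in shG9a, 0.26 in shJarid2 and 0.34 in shsuz12, each with an SE of 0.17, and none passed (adjusted p = 0.0970, 0.316, 0.223 and 0.116). Without library 3, the shJarid2 difference was 0.54 and passed (adjusted p = 2.49e-04). In models of the 6 libraries of a comparison alone, TJP1 passed as lower in shPALI1 and shG9a and higher in shsuz12 (adjusted p = 0.00542, 0.0161 and 0.0164).

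EPCAM (chr2:47345158-47387601, plus strand) encodes a single-pass adhesion molecule of simple epithelia that binds claudin-7. It was 58.4, 65.4 and 60.7 RPKM in pLKO. The RPKM was 79.5, 76.0 and 75.6 in shPALI1, 85.6, 93.0 and 91.9 in shG9a, 72.2, 75.05 and 90.8 in shJarid2, and 83.6, 99.6 and 94.7 in shsuz12. Every library of every hairpin group lay above the 3 pLKO libraries. EPCAM rose 1.25-fold in shPALI1 (0.32, SE 0.09, adjusted p = 0.0101), 1.47-fold in shG9a (0.55, SE 0.09, adjusted p = 2.27e-04), 1.29-fold in shJarid2 (0.36, SE 0.09, adjusted p = 0.00395) and 1.51-fold in shsuz12 (0.58, SE 0.09, adjusted p = 8.40e-05). Without library 3 the rise in shJarid2 was 0.26 (adjusted p = 0.00973). In shPALI1 it moved the other way from the claudins, whose 3 differences were -0.72, -0.48 and -0.35.

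The desmosome was represented by DSP (chr6:7541575-7586717, plus strand), which encodes desmoplakin, the plaque protein that anchors keratin filaments. It was 26.7, 29.4 and 28.5 RPKM in pLKO. The RPKM was 24.6, 33.5 and 34.5 in shPALI1, 40.1, 39.8 and 41.3 in shG9a, 25.3, 19.95 and 11.9 in shJarid2, and 35.5, 30.7 and 28.4 in shsuz12. The shG9a libraries lay above pLKO and those of shJarid2 below, without overlap. DSP fell to 67.5% in shJarid2 (-0.60, SE 0.20, adjusted p = 0.0191), and without library 3 the difference was -0.31 and did not pass (adjusted p = 0.0609). Without pLKO replicate 2 it was -0.57 (adjusted p = 0.0550). The mean was 1.43-fold of pLKO in shG9a, a difference of 0.50 that missed the threshold (SE 0.20, adjusted p = 0.0509). It passed in 5 of 17 settings, among them median ratio scaling (adjusted p = 0.0395), quantile normalization (0.0272) and the model of these 6 libraries alone (3.89e-04). The differences of 0.11 in shPALI1 and 0.15 in shsuz12 did not pass (adjusted p = 0.678 and 0.540).

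CD2AP (chr6:47477789-47627263, plus strand) encodes an adapter with SH3 domains that binds actin-capping protein and CBL and is known from cell contacts, endocytosis and the slit diaphragm of the kidney. Its range across groups was the widest of the 10, and its promoter window (chr6:47477539-47477788, GRCh38.p14) held 2 of the marked words.
CD2AP: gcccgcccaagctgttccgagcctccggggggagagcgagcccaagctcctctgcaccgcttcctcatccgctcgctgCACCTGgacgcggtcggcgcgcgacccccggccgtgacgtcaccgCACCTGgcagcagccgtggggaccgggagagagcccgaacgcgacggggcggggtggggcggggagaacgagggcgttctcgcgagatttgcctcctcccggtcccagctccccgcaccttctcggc
It was 25.6, 31.5 and 28.1 RPKM in pLKO. In shsuz12 it was 6.76, 6.10 and 5.91 RPKM, and in shJarid2 67.4, 68.0 and 42.5 RPKM, so these groups lay on either side of pLKO with no overlap. The RPKM was 19.8, 21.9 and 20.2 in shPALI1, below pLKO, and 29.1, 24.3 and 25.3 in shG9a, overlapping it. CD2AP fell to 22.0% in shsuz12, a 4.54-fold lower mean (-2.01, SE 0.14, adjusted p = 7.84e-08), which ranked 28 of 12715 genes by absolute difference. It rose 2.09-fold in shJarid2 (1.01, SE 0.14, adjusted p = 4.79e-05), and without library 3 the rise was 1.23. It fell to 72.7% in shPALI1 (-0.44, SE 0.14, adjusted p = 0.0258), a call that passed in 9 of 17 settings. It ended without any 1 of 4 libraries (pLKO replicates 2 and 3, shPALI1 replicates 1 and 3; adjusted p = 0.0987, 0.0541, 0.0722 and 0.0673). It also ended with no filter on low values, median ratio scaling, quantile normalization and TPM (adjusted p = 0.0501, 0.0517, 0.118 and 0.0998). The difference in shG9a was -0.11 (adjusted p = 0.574).

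**Figure D2:**
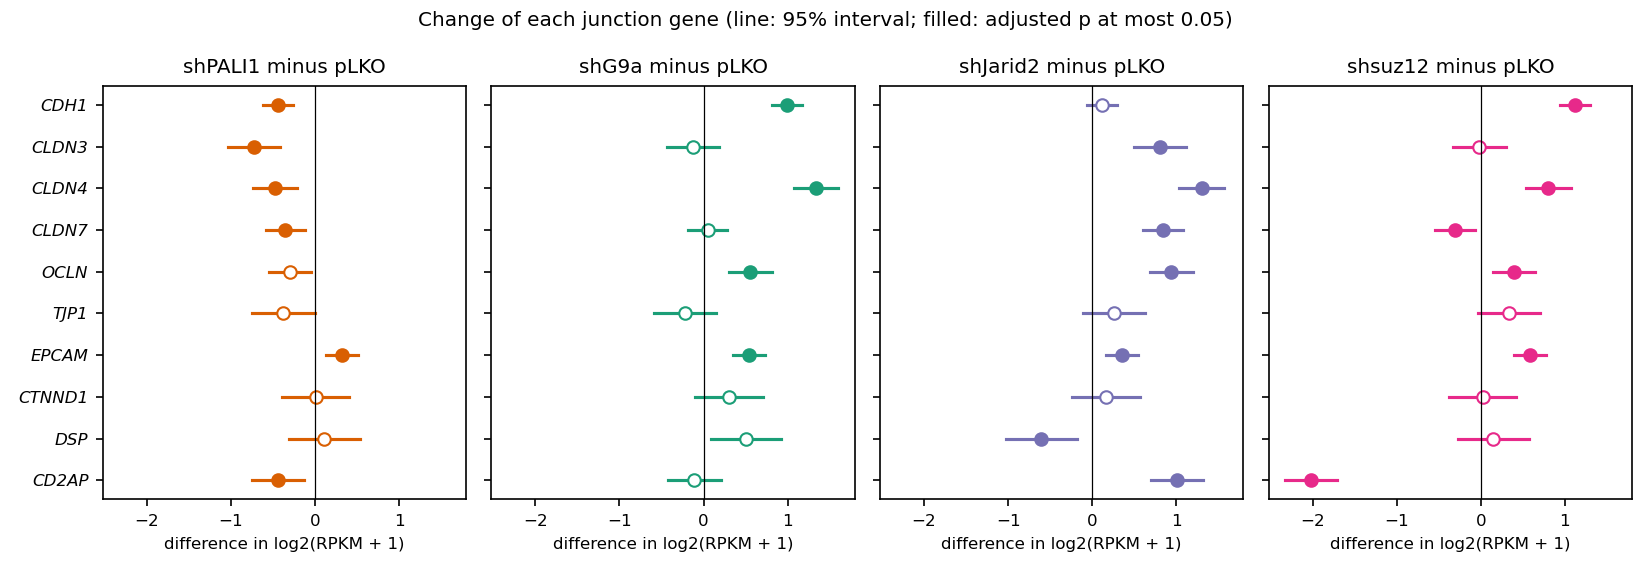
Difference of each junction gene from pLKO in log2(RPKM + 1), 1 panel per hairpin; lines are 95% intervals and filled points passed at an adjusted p of at most 0.05. Filled points lie to the left for 5 genes and to the right for 1 in shPALI1. These counts are 0 and 4 in shG9a, 1 and 6 in shJarid2, and 2 and 4 in shsuz12, and CD2AP in shsuz12 is at -2.01.

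The hairpin groups were then compared with each other to ask where the responses of the junction genes differed. These differences do not use the pLKO means, while the pLKO libraries share in the common estimate of the spread. Against shG9a, shPALI1 had 5 members lower and 0 higher, with 24.1% of all genes lower and 24.1% higher. CDH1 differed by -1.43 (SE 0.08, adjusted p = 7.40e-09) and CLDN4 by -1.81 (SE 0.12, adjusted p = 3.80e-08). OCLN (-0.86), CLDN3 (-0.60) and CLDN7 (-0.40) also passed. Against shJarid2, shPALI1 had 7 members lower and DSP higher, where 31.8% of all genes were lower and 30.5% higher. The differences of the claudins were -1.78 for CLDN4, -1.53 for CLDN3 and -1.20 for CLDN7, and -1.65, -1.36 and -1.08 without library 3 of shJarid2, when 8 members were lower and 1 higher beside 32.4% and 31.6% of all genes. Against shsuz12, it had 6 members lower and CD2AP higher, with 25% of all genes lower and 30.9% higher. CDH1 was 2.97-fold higher in shsuz12 than in shPALI1 (-1.56 for shPALI1 minus shsuz12, SE 0.08, adjusted p = 2.85e-09). CLDN7 did not pass there (-0.05, 95% interval from -0.28 to 0.19).

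Between shG9a and shsuz12, 3 members were higher in shG9a and TJP1 was lower, where 25.8% of all genes were higher and 19.8% lower. CDH1 differed by -0.13 and did not pass, with a 95% interval from -0.31 to 0.05 (adjusted p = 0.223). CLDN4 was 1.45-fold higher in shG9a (0.53, SE 0.12, adjusted p = 0.00294). CD2AP, which did not pass between shG9a and pLKO, was 4.19-fold higher in shG9a than in shsuz12 (1.91, SE 0.14, adjusted p = 1.50e-07). CLDN7 (0.35) and TJP1 (-0.56) passed at an adjusted p of 0.0161 each, and without replicate 1 of shsuz12 only 2 members passed in this comparison.

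Between shG9a and shJarid2, CDH1 and DSP were higher in shG9a and 5 members were lower, with 27.2% of all genes higher and 28.6% lower. CDH1 was 1.82-fold higher in shG9a (0.87, SE 0.08, adjusted p = 9.38e-07), while CLDN3 was 1.95-fold higher in shJarid2 (-0.93 for shG9a minus shJarid2, SE 0.14, adjusted p = 9.31e-05). CLDN4 differed by 0.04, with a 95% interval from -0.23 to 0.30. Without library 3 of shJarid2 these differences were 0.77, -0.76 and 0.16, and EPCAM also passed as higher in shG9a (0.29, adjusted p = 0.00468).

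Between shJarid2 and shsuz12, the hairpins against the PRC2 subunits, 5 members were higher in shJarid2 (CLDN3, CLDN4, CLDN7, OCLN and CD2AP) and 3 were lower (CDH1, EPCAM and DSP). Of all genes, 33.8% were higher and 25.2% lower. CD2AP was 9.48-fold higher in shJarid2 (3.02, SE 0.14, adjusted p = 9.87e-10), which ranked 5 of 12715 genes by absolute difference. CDH1 was 1.995-fold higher in shsuz12 (-0.998 for shJarid2 minus shsuz12, SE 0.08, adjusted p = 1.99e-07), and CLDN7 was 2.24-fold higher in shJarid2 (1.15, SE 0.11, adjusted p = 7.40e-07). Without library 3 of shJarid2 these differences were 3.24, -0.90 and 1.03, and CTNND1 passed as well, at 0.44 (adjusted p = 0.00339).

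**Figure D3:**
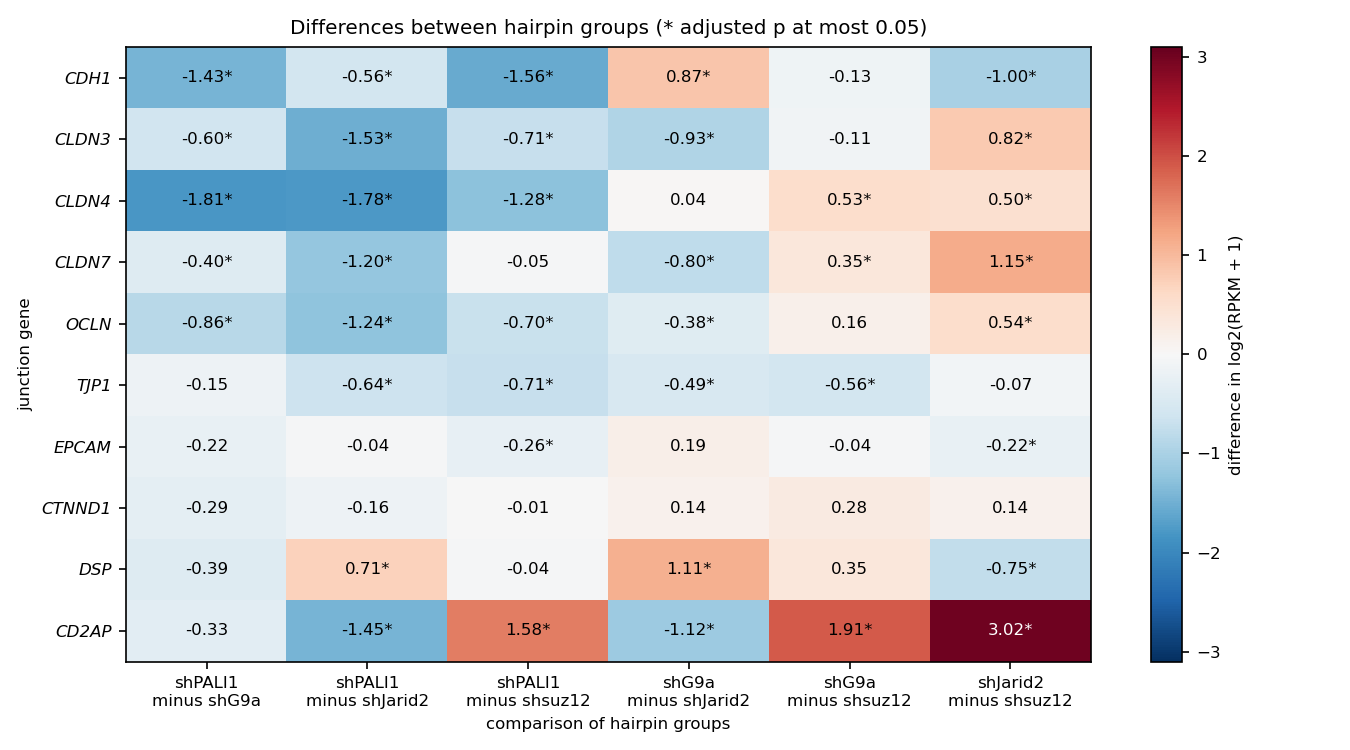
Differences in log2(RPKM + 1) between hairpin groups for each junction gene; colour and number give the first group minus the second, and an asterisk marks an adjusted p of at most 0.05. The shPALI1 columns are mostly negative, and CD2AP ranges from -1.45 to 3.02.

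Ordered by group mean, shPALI1 was lowest for CDH1, CLDN3, CLDN4, CLDN7, OCLN and TJP1. The highest group was shsuz12 for CDH1, TJP1 and EPCAM, shG9a for CLDN4, CTNND1 and DSP, and shJarid2 for CLDN3, CLDN7, OCLN and CD2AP. The ratio of the highest to the lowest group mean was 9.48 for CD2AP, 3.55 for CLDN4, 3.0 for CLDN3, 2.97 for CDH1, 2.76 for OCLN, 2.33 for CLDN7 and 2.12 for DSP. It was 1.70 for TJP1, 1.51 for EPCAM and 1.42 for CTNND1. Without library 3, shJarid2 was the highest group for TJP1 (23.5 RPKM) and CTNND1 (2.12 RPKM), and the ratio for CD2AP was 10.8. With all libraries, neighbours in these orders that overlapped were shJarid2 and pLKO for CDH1, shG9a and shJarid2 for CLDN4, shJarid2 and shG9a for OCLN, and pLKO and shG9a for CD2AP. For CLDN3, shsuz12 overlapped both pLKO above it and shG9a below it. For CLDN7, shG9a overlapped pLKO and shsuz12 overlapped shPALI1. For TJP1, shJarid2 overlapped shsuz12 and pLKO, and for DSP, shPALI1 overlapped shsuz12 and pLKO. All 4 neighbouring pairs overlapped for CTNND1. For EPCAM the 4 hairpin groups overlapped in turn and pLKO lay below them.

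Library 3 of shJarid2 moved the members in opposite directions. It was at 143% of the mean of libraries 1 and 2 for CLDN3, 130% for CLDN4, 129% for CLDN7 and 123% for EPCAM. It was at 80.6% for CDH1, 67.4% for OCLN, 62.8% for CD2AP, 54.0% for TJP1, 52.4% for DSP and 32.2% for CTNND1. The longest annotated transcripts of the first 4 genes are 1.27 to 4.16 kb and those of the other 6 are 4.89 to 9.80 kb. Over all tested genes, the median difference of that library from the other shJarid2 libraries was 0.35 at 1 to 2 kb and -0.45 at 10 kb or more. Its deviation from the group mean correlated with transcript length at a Spearman's rho of -0.57. In other groups the tilt was weaker, and it was largest in shPALI1 library 1 (-0.37) and shsuz12 library 1 (0.35). The values of long genes in shPALI1 and shsuz12 are thus not free of it. The part of length in the shJarid2 results was not tested beyond the values without library 3 and with a correction for length. Under that correction 8 members were higher than in pLKO and 1 lower, and the shares of all genes under it are not given here.

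**Figure D4:**
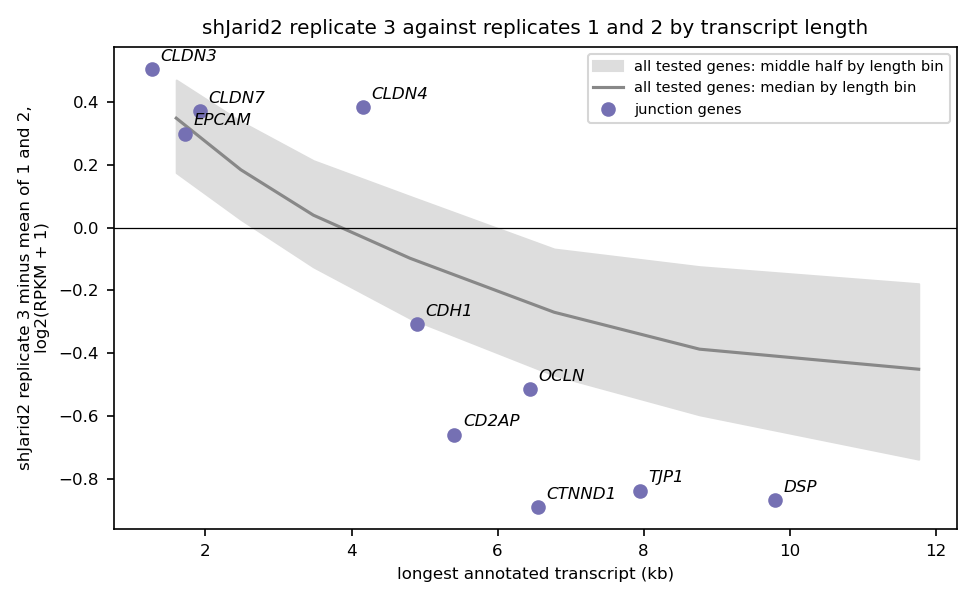
Difference of shJarid2 library 3 from the mean of libraries 1 and 2 in log2(RPKM + 1) (vertical axis) against the longest annotated transcript (horizontal axis, kb); points are the 10 junction genes, the line is the median of all tested genes by length bin and the band holds their middle 50%. CLDN3, CLDN7, EPCAM and CLDN4 lie above 0 and the 6 genes with longer transcripts lie below.

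The other genes of the tight junction were counted from a list of 30 names in the table, of which 25 were tested. The counts of this and the following lists are to be read beside the shares of all genes that passed as higher and lower. These were 16.5% and 25.1% in shPALI1, 18.4% and 24.7% in shG9a, 23.8% and 27.2% in shJarid2, and 21.1% and 32.8% in shsuz12. In shJarid2, 22 listed genes, SNAI1 and those taken by the rule for named genes, all passed against pLKO in the same direction without library 3, with differences that moved by at most 0.27. In shPALI1, 13 of the 25 were lower and 2 higher, with a median of -0.35. CGN, which encodes cingulin, a cytoplasmic linker to actin, fell to 7.24 RPKM from 20.2 RPKM (-1.37, SE 0.07, adjusted p = 5.62e-09). MPP5, the polarity scaffold PALS1, fell to 7.93 RPKM from 17.3 RPKM and CLDN12, a further claudin, to 27.8 RPKM from 56.7 RPKM (adjusted p = 5.64e-06 and 1.66e-06). In shJarid2 11 of the 25 were higher and 4 lower, in shsuz12 9 and 3, and in shG9a 6 and 6. CLDN8, another claudin, rose from 1.39 RPKM in pLKO to 6.22 RPKM in shG9a and 6.54 RPKM in shJarid2 (1.59 and 1.65, SE 0.12, adjusted p = 2.56e-07 and 1.04e-07). CLDN12 was lower in shJarid2 and shsuz12 too (-1.05 and -0.79). Without library 3 of shJarid2, 12 were higher and 4 lower there. The split between higher and lower moved with scaling in shG9a, where TPM gave 8 higher and 3 lower.

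Of the other adherens junction genes, 13 were tested. The counts higher and lower were 4 and 4 in shPALI1, 6 and 1 in shG9a, 5 and 2 in shJarid2, and 6 and 3 in shsuz12. Without library 3, shJarid2 had 7 higher and 2 lower. With the length correction, which could be fitted for 9 of them, shsuz12 had 2 higher and 3 lower. The genes left out had no matched transcript length, and PVRL1 and PVRL4, both higher in shsuz12, were among them. The counts with and without this correction therefore cover different sets of genes. PVRL1 and PVRL4 encode nectins, adhesion molecules that work beside cadherins. PVRL1 rose from 3.03 RPKM to 10.8 in shG9a, 8.25 in shJarid2 and 6.93 in shsuz12 (1.55, 1.20 and 0.98). PVRL4 rose by 1.36, 1.10 and 1.32 in the same groups and fell by 0.66 in shPALI1. CTNNA1, alpha-catenin, which links the cadherin complex to actin, fell in shsuz12 to 20.5 RPKM from 63.0 RPKM (-1.58, SE 0.07, adjusted p = 1.50e-09) while CDH1 rose there.

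Among 9 other desmosome genes, 5 were lower and 1 higher in shPALI1, which became 3 and 1 with median ratio scaling. The counts higher and lower were 3 and 3 in shG9a, 2 and 3 in shJarid2 and 3 and 2 in shsuz12. In shJarid2, where DSP fell, the desmosomal cadherins DSG2 and DSC2 fell by 1.02 and 0.98 (adjusted p = 2.69e-05 and 2.50e-05), and DSC3, of the same family, rose by 0.77 (adjusted p = 1.98e-04). All 3 passed in the same direction without library 3, and the counts were again 2 and 3. DSC2 also fell in shG9a (-0.81) and rose in shsuz12 (0.55). Of 2 gap junction genes tested, 0 were higher and 1 lower in shPALI1. The counts were 1 and 0 in shG9a, 1 and 1 in shJarid2, with or without library 3, and 1 and 0 in shsuz12. GJB1, the connexin 32 gene, had 3.01 RPKM in pLKO, 0.448 in shPALI1, 6.08 in shG9a, 11.9 in shJarid2 and 9.68 in shsuz12. Each GJB1 difference passed, at -1.47, 0.82, 1.66 and 1.42.

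Other genes of the epithelial cell surface were counted next. Of 11 tested, 7 were higher and 1 lower in shG9a, 7 and 1 in shJarid2, and 8 and 0 in shsuz12, while shPALI1 had 4 higher and 5 lower. Without library 3, shJarid2 had 6 higher and 2 lower. PRSS8, the membrane protease prostasin, rose by 1.55, 1.20 and 1.75 in shG9a, shJarid2 and shsuz12. SPINT1, an inhibitor of such proteases, rose by 1.28, 1.21 and 1.16. CD24, a surface glycoprotein, rose from 0.850 RPKM to 4.98 RPKM in shPALI1 (1.69) and rose in shG9a (1.09). RAB25, a small GTPase of epithelial vesicle traffic, rose in shPALI1 (0.66). CD9, a tetraspanin, fell in shPALI1 from 218 RPKM to 93.0 RPKM and rose to 493 RPKM in shJarid2.

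Of 11 transcription and splicing regulators of epithelial genes, 6 were lower and 0 higher in shPALI1, 1 was higher and 3 lower in shG9a, and 5 were higher and 3 lower in shJarid2 (5 and 2 without library 3). In shsuz12, 7 were lower and 2 higher, but the lower count was 2 with median ratio scaling, 3 with quantile normalization and 3 with TPM. ELF3, an ETS factor of epithelia, fell by 0.71 in shPALI1 and rose by 0.86 in shG9a, 0.78 in shJarid2 and 0.69 in shsuz12. Other regulators went the other way in those groups. EHF fell in shsuz12 from 140.3 RPKM to 80.8 RPKM (-0.79). KLF5 fell in shG9a and shJarid2 (-0.79 and -0.46), and KLF4 fell in shG9a and shsuz12 (-0.62 and -0.65). OVOL1 rose in shJarid2 (0.43), and ESRP2 and OVOL2 fell in shPALI1 (-0.57 and -0.51). Of 10 named repressors of epithelial genes, 4 were tested. The counts higher and lower were 1 and 1 in shPALI1 and 0 and 2 in each other hairpin group. TCF3, which encodes the E-protein E2A, rose by 0.49 in shPALI1 and fell in shJarid2 (-0.41). TWIST1 fell from 2.49 RPKM to 1.14 in shPALI1, 0.820 in shG9a and 0.927 in shsuz12 (-0.69, -0.92 and -0.84). SNAI1, the gene of a zinc-finger repressor of CDH1, falls outside the rule for named genes and was chosen after its values were seen. Its levels were 1.98 RPKM ± 0.456 in pLKO, 1.77 ± 0.255 in shPALI1, 0.699 ± 0.208 in shG9a, 1.15 ± 0.266 in shJarid2 and 0.894 ± 0.0411 in shsuz12 (SD, n = 3), and the last 3 groups passed as lower (-0.81, -0.47 and -0.64). ZEB1 was at most 0.0309 RPKM and ZEB2 at most 0.00630 RPKM in any library, and CDH2, the gene of N-cadherin, at most 0.0665 RPKM.

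Of 7 partners of CD2AP, 1 was higher and 2 lower in shPALI1, 2 and 2 in shG9a, 2 and 3 in shJarid2 (3 and 2 without library 3), and 0 and 3 in shsuz12. CBLB, a ubiquitin ligase of the CBL family, rose in shPALI1 from 3.38 RPKM to 8.82 RPKM (1.17). CAPZA1, a subunit of actin-capping protein, fell in shsuz12 from 90.4 RPKM to 36.1 RPKM (-1.30, SE 0.07, adjusted p = 1.15e-08). SH3KBP1, the paralogous adapter CIN85, fell in shsuz12 by 0.65 and CAPZA2 by 0.52. In shJarid2, where CD2AP rose, CTTN, the actin regulator cortactin, rose by 0.79 and CAPZB fell by 1.13. Of 8 mesenchymal genes, 4 were tested. The counts higher and lower were 2 and 0 in shPALI1, 1 and 1 in shG9a, 1 and 1 in shJarid2, and 2 and 1 in shsuz12. ITGA5, the alpha subunit of a fibronectin receptor, rose in all 4 groups (0.30, 0.93, 0.49 and 1.28). VIM, the intermediate filament of mesenchymal cells, rose from 0.644 RPKM to 4.71 RPKM in shPALI1 and 2.26 RPKM in shsuz12 (1.79 and 0.99), while FN1, fibronectin, fell in shsuz12 (-1.24). FN1 also fell in shG9a (-0.47), a call that passed in 8 of 17 settings.

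**Figure D5:**
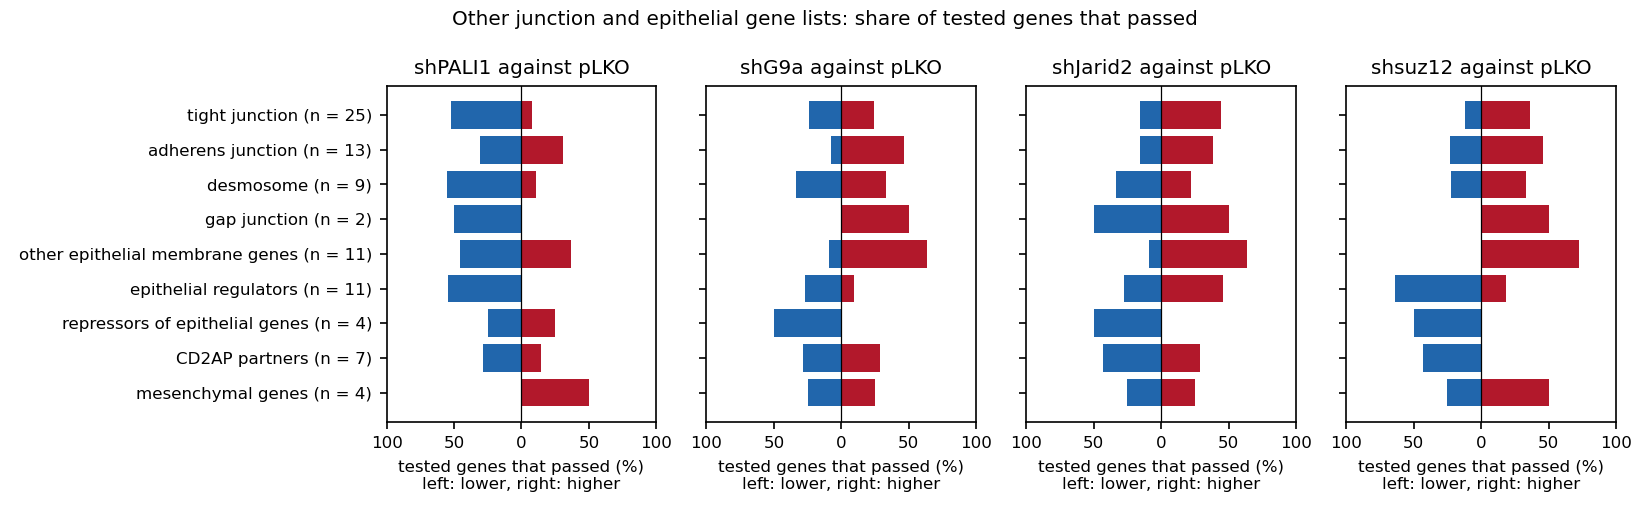
Share of tested genes of each list that passed as higher (right) or lower (left) than pLKO, in percent, 1 panel per hairpin, with the number tested beside each list. Tight junction genes lie mostly to the left in shPALI1 (13 of 25) and other epithelial membrane genes mostly to the right in the other hairpin groups.

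Markers of the labelled line and of other cells moved beside these genes. The summed RPKM of 9 luminal prostate markers was 2082 to 2303 in pLKO, 849.7 to 962 in shPALI1, 1043 to 1101 in shG9a, 1662 to 1956 in shJarid2 and 1321 to 1412 in shsuz12. Of the 9, 8 were lower and 0 higher in shPALI1, 6 and 1 in shG9a, 3 and 4 in shJarid2, and 7 and 0 in shsuz12. The summed level of 4 basal markers was at most 0.594 RPKM outside shJarid2 and 3.96 to 5.21 RPKM in it, most of it KRT14, at 4.02 RPKM ± 0.753 (SD, n = 3). In library 3 of shJarid2 the luminal sum was 1956 RPKM and the basal sum 5.21 RPKM, beside 1688 and 1662 RPKM, and 4.27 and 3.96 RPKM, in libraries 1 and 2. The sums of 5 immune markers were 2.03 to 4.85 RPKM, with CD3E at 0 throughout, those of 4 endothelial markers 0.479 to 2.48 RPKM and those of 5 fibroblast markers 1.76 to 6.02 RPKM. Those of 4 neuroendocrine markers were 7.97 to 10.1 RPKM in pLKO and 6.82 to 7.83 RPKM in shPALI1. They were 12.7 to 14.35 RPKM in shG9a, 6.77 to 12.1 RPKM in shJarid2 and 13.3 to 14.2 RPKM in shsuz12. The part of these markers in the junction gene results was not tested.

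Genes whose pattern over the 15 libraries was most like each member's were found by Pearson's r of log2(RPKM + 1) among genes with a mean of at least 5 RPKM. The libraries share groups, depth and the length effect of library 3 of shJarid2, so these values only describe the table. CDH1 was most like POFUT1 (r = 0.988) and ABCC5 (0.979), and CD2AP most like OXR1 (0.990) and RPS6KB1 (0.988). CLDN3 was most like VWA1 (0.983), CLDN4 like B4GALT4 (0.981), CLDN7 like FLOT1 (0.993) and OCLN like RGMB (0.982). TJP1 was most like RAB3GAP2 (0.973), DSP like ZBED6 (0.973), CTNND1 like SBF2 (0.921) and EPCAM like ITFG3 (0.910). Among the members themselves, the highest r were 0.89 for CLDN3 with CLDN7 and 0.87 for CLDN4 with OCLN, and the lowest was -0.72 for CLDN7 with DSP.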

How the data were processed

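RNA was measured in 15 libraries of LNCaP cells, 5 groups of 3. Per the labels, libraries came from a NEBNext Ultra preparation. Values are RPKM as deposited by the authors, in 1 table. The submitters' processing notes name STAR as aligner and hg38 as build. Versions and the read counter, with its annotation, were not given in the sources used here. Of 26475 rows, 32 had no values. Depth was worked out from the steps of low values in short RNAs, 92.3% to 94.4% of which lay within 0.05 of whole reads under 50 reads, a check that is partly circular.

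The 12715 genes that reached 1 RPKM in 3 or more libraries were tested on log2(RPKM + 1) with limma 3.58.1 in R 4.3.3, in 1 model over the 15 libraries with a mean-variance trend and two-sided moderated tests. P-values were Benjamini-Hochberg adjusted over all tested genes within each of 10 comparisons. The procedure was tested on simulated data. The members and gene lists were chosen with earlier results of these data known. From each list, up to 3 genes with the largest difference from pLKO were named, among those that passed, did not overlap and had a mean of at least 2 RPKM in the higher group. Locations are from GENCODE v29 (GRCh38) and promoter windows from RefSeq (GRCh38.p14). Protein sequences were not used here.

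The fit was repeated with pseudocounts of 0.1 and 0.5, without a filter, with a filter at a mean of 3 RPKM, with quantile normalization, median ratio scaling or TPM, in a model of 6 libraries alone, with the replicate number as a block, and with each library left out. A correction for transcript length was added after seeing the data.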

Additional observations from a re-analysis of the deposited data

How the results depend on the processing

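Over the alternatives, 1490 of 1590 member results kept their direction and their side of the threshold, 48 newly passed, 51 no longer passed and 1 reversed. EPCAM in shPALI1 against shJarid2 was -0.04 and did not pass, and with quantile normalization it was 0.18 (adjusted p = 0.0159). With 6 libraries alone, 7 members passed in shG9a against pLKO in place of 4 and 9 in shPALI1 against shG9a in place of 5, and with the length correction 8 passed in the latter. The cause was not tested. With each library left out in turn, the members that passed were 4 to 6 in shPALI1, 4 to 4 in shG9a, 6 to 9 in shJarid2 and 5 to 6 in shsuz12 against pLKO. They were 2 to 4 in shG9a against shsuz12, with 2 without shsuz12 replicate 1. The shares of all genes are not given beside these counts, which show only how the calls of members moved. EPCAM and CLDN4 passed in every setting run in their 4 comparisons with pLKO.

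TPM moved the median of all genes by 0.11 in shG9a and 0.14 in shsuz12 against pLKO, by 0.15 in shG9a against shJarid2 and by -0.17 in shJarid2 against shsuz12. CTNND1 was not tested with the mean RPKM filter of 3. Its 1.27 RPKM in pLKO limits how small a change can be seen. The same replicate numbers occur in all groups, but libraries with the same number deviated together in only 7 of 30 pairs (r over 0.1, range -0.27 to 0.30), so the numbers were not taken as pairs. With the replicate block, OCLN in shPALI1 against pLKO, at -0.30, and EPCAM in shPALI1 against shG9a, at -0.22, also passed (adjusted p = 0.0424 and 0.0453). The members that passed were then 7 in shPALI1 and 4 in shG9a against pLKO, again given without the shares of all genes. The block changed no other call of a member.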
